A study of Bos taurus with 5 samples.

Results

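The mitochondrial chromosome of cattle gave 41 of the 72812 transcripts in the deposited expression table. Members were all transcripts whose location is chromosome M, whatever their level. They carried 37 Ensembl transcript IDs and were grouped by the authors' assembly into 4 loci. Of the 41 transcripts, 17 were above 0 in all 5 libraries and 24 were listed at 0 in all 5, with none in between. The 17 were also the only members with a mean of at least 1 FPKM (fragments scaled to the length of the transcript and to sequencing depth).

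The mitochondrial chromosome is a small circle that codes for subunits of the respiratory chain and of ATP synthase, and for the ribosomal and transfer RNAs that translate them inside the organelle. Both strands are transcribed as long precursors, which are cut, mostly at the transfer RNAs, and most messenger RNAs then receive a short poly(A) tail. It is inherited from the dam, so a cross carries the mitochondria of its dam's maternal line. Leukocyte types differ in how much they rely on respiration: neutrophils live largely on glycolysis, whereas lymphocytes and monocytes hold more active mitochondria.

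Peripheral blood leukocytes of 5 cattle populations were sequenced as poly(A) RNA, with 1 library for each population. Libraries N and H were labelled purebred, with no further meaning of the letters in the labels. The crosses were bred from Holstein and Iranian native cattle: 50CSN had 50 percent of each breed from a native sire and a Holstein dam. In 50CSH the shares were also 50 percent, from a Holstein sire and a native dam. The third cross, 75C, had 75 percent Holstein and 25 percent native ancestry, and its dam breed is not stated. The sources used here do not give the age, sex or number of animals behind each library, or any treatment. Because each population is 1 library, differences between populations could not be checked against replicates.

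Summed FPKM over all transcripts ranged from 733855 in H to 852903 in 50CSN, and read totals were not given. The most frequent ratio among low values of single-transcript loci put sequencing depth relative to H between 0.933 for 75C and 1.2 for N. It is a rough guide: it was held by 239 of 1768 loci for 75C, 193 of 1663 for N and 93 of 1646 for 50CSN. No counting interval can be given from these values. The tables name no gene symbols, so the leukocyte label could not be checked against marker genes.

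No member could be given a gene name. All 41 transcripts carry the whole chromosome, position 1 to 16338, as their location, without a start, an end or a strand of their own, and the sources used here name no build. RefSeq's gene table for the assembly ARS-UCD2.0 lists 37 mitochondrial genes, 13 for proteins, 2 for ribosomal RNA and 22 for transfer RNA. That table holds no Ensembl IDs, so none of the 37 IDs matched, and members are described by ID. The position of each transcript along the chromosome could not be used for the same reason. Library preparation, as described in the labels, has no step that keeps strand, so reads of overlapping or opposite mitochondrial genes cannot be told apart.

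The listed zeros covered 22 of the 37 IDs entirely. A listed 0 can be a failed estimate of the model that divides reads between transcripts, and it does not show that a gene was silent. In the pairwise table these 24 transcripts were marked as not tested. The number of IDs at 0 equals the number of transfer RNA genes in RefSeq's table, which does not identify them: the files do not say which kind of gene each ID belongs to.

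Mitochondrial transcripts summed to 47146 FPKM in N, with 41644 FPKM in H, 51424 FPKM in 50CSN, 45910 FPKM in 50CSH and 48105 FPKM in 75C. The highest library, 50CSN, was 1.23 times the lowest, H. As a share of all summed FPKM the order changed, because the total itself differed 1.16-fold between libraries. The share was 6.41 percent in N, 6.03 percent in 50CSN, 5.82 percent in 50CSH, 5.70 percent in 75C and 5.67 percent in H. FPKM is scaled to transcript length, so this is a share of length-scaled signal and not of reads. In bulk leukocytes, fewer cells rich in mitochondria and less mitochondrial RNA per cell cannot be told apart.

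A few members carried most of the signal. Among the 50 transcripts with the highest mean FPKM, 8 were mitochondrial, and among the top 20 there were 4. The first 6 members of each library held between 72.2 percent of its mitochondrial sum, in N, and 74.2 percent, in 50CSN. The highest, TCONS_00065376 of ENSBTAT00000060569, ranked 5 in the table. It stood at 9581 FPKM in N, with 8152 FPKM in H, 8908 FPKM in 50CSN, 9703 FPKM in 50CSH and 9263 FPKM in 75C, and the highest library was 1.19 times the lowest.

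Next came ENSBTAT00000060553, at 5153 FPKM in N, with 5010 FPKM in H, 8528 FPKM in 50CSN, 6531 FPKM in 50CSH and 6357 FPKM in 75C. Its purebred libraries were close to each other and below all 3 crosses as deposited, with 50CSN standing well above the rest. ENSBTAT00000060566 was at 5722 FPKM in N, with 5341 FPKM in H, 6149 FPKM in 50CSN, 5392 FPKM in 50CSH and 5891 FPKM in 75C. With a ratio of 1.15 between highest and lowest library, it had the narrowest range of the 17. ENSBTAT00000060547 was at 5072 FPKM in N, with 4357 FPKM in H, 5915 FPKM in 50CSN, 4390 FPKM in 50CSH and 5228 FPKM in 75C, so that H and 50CSH were the low libraries.

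ENSBTAT00000060539 was at 5023 FPKM in N, with 4342 FPKM in H, 4776 FPKM in 50CSN, 4036 FPKM in 50CSH and 4949 FPKM in 75C. Here too H and 50CSH were lowest. ENSBTAT00000060549 was at 3498 FPKM in N, with 3091 FPKM in H, 3899 FPKM in 50CSN, 3880 FPKM in 50CSH and 3646 FPKM in 75C, with both 50 percent crosses on top and little between them. ENSBTAT00000060571 was at 3110 FPKM in N, with 2483 FPKM in H, 3196 FPKM in 50CSN, 2713 FPKM in 50CSH and 2965 FPKM in 75C. TCONS_00065393 of ENSBTAT00000060567, the last of the 8 most abundant, was at 2239 FPKM in N, with 1997 FPKM in H, 2627 FPKM in 50CSN, 2391 FPKM in 50CSH and 2384 FPKM in 75C. As deposited, 50CSN was the highest library in 6 of these 8 transcripts, and H was the lowest in 7 of them. These libraries also had the highest and the lowest summed FPKM over all transcripts. Of the 17 members, 15 were higher in 50CSN than in H as deposited, and 7 after quantile normalization.

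**Figure D1:**
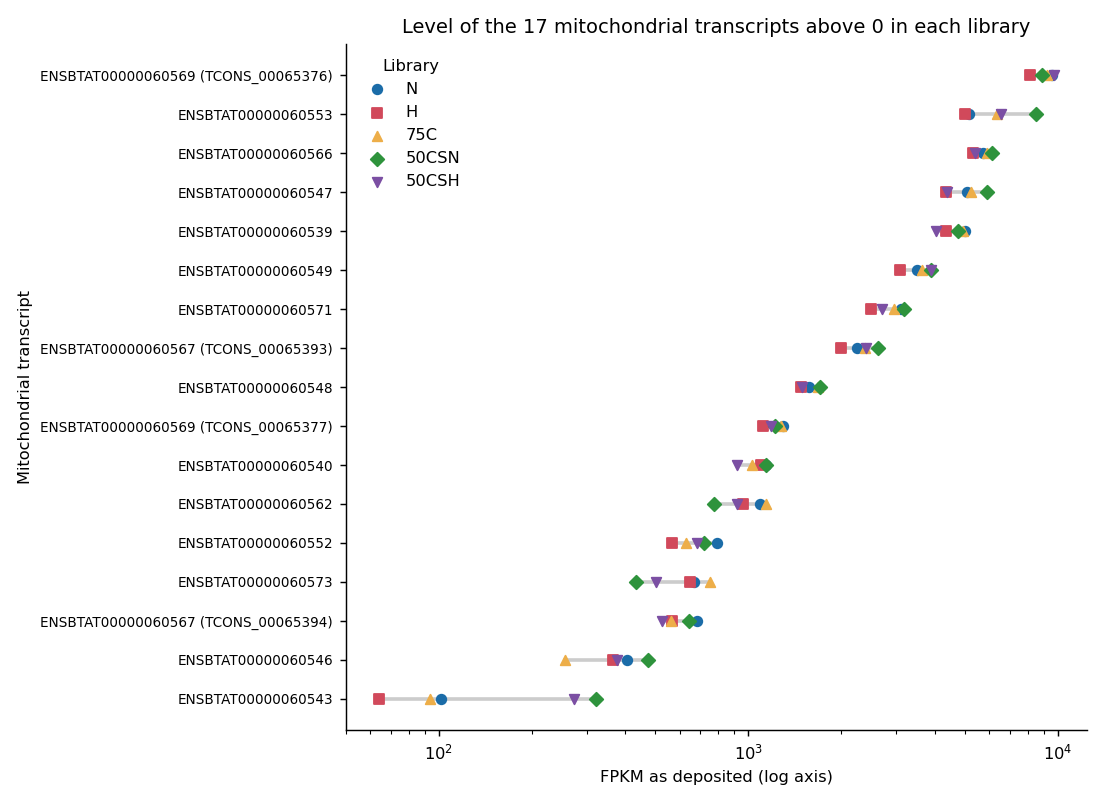
Level of each of the 17 mitochondrial transcripts above 0, as deposited FPKM on a log axis, with 1 symbol per library and a grey bar from the lowest to the highest library. Most bars are short, from a 1.15-fold to a 1.47-fold span, whereas the bar of ENSBTAT00000060543 runs from 64.2 FPKM in H to 322 FPKM in 50CSN.

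One member varied far more than the others. ENSBTAT00000060543, the least abundant of the 17, was at 102 FPKM in N, with 64.2 FPKM in H, 322 FPKM in 50CSN, 274 FPKM in 50CSH and 93.5 FPKM in 75C. Both 50 percent crosses were above all other libraries, by 2.67-fold (50CSH against N) to 4.95-fold (50CSN against H) on the FPKM + 1 scale. Its share of the mitochondrial sum was 0.216 percent in N, 0.154 percent in H and 0.194 percent in 75C, against 0.626 percent in 50CSN and 0.597 percent in 50CSH. This transcript was the only member at least 2-fold apart in any pair of libraries.

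An opposite pattern was seen in the locus XLOC_027736, where 2 of 10 transcripts were above 0. ENSBTAT00000060573 was at 667 FPKM in N, with 647 FPKM in H, 435 FPKM in 50CSN, 505 FPKM in 50CSH and 751 FPKM in 75C. ENSBTAT00000060562 was at 1094 FPKM in N, with 961 FPKM in H, 776 FPKM in 50CSN, 918 FPKM in 50CSH and 1142 FPKM in 75C. For both of them 75C was the highest library, 50CSN the lowest, and the 50 percent crosses lay below the other 3 libraries. The locus took 3.73 percent of the mitochondrial sum in N and 3.86 percent in H, 2.36 percent in 50CSN and 3.10 percent in 50CSH, and 3.94 percent in 75C.

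ENSBTAT00000060546 differed in another library. It was at 406 FPKM in N, with 365 FPKM in H, 474 FPKM in 50CSN, 377 FPKM in 50CSH and 256 FPKM in 75C. Its low value was that of 75C, which lay 0.53 below the 5-library mean on the log2 scale, and its high value that of 50CSN, 0.36 above. Together with ENSBTAT00000060543, ENSBTAT00000060573, ENSBTAT00000060553 and ENSBTAT00000060562, it made up the 5 members with the widest range. The same 5 were the only ones whose share of the mitochondrial sum differed at least 1.5-fold between libraries. ENSBTAT00000060553 was only just past that limit, at 1.52-fold, and fell to 1.46-fold when the highest mitochondrial transcript was left out of the sum.

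The remaining 5 transcripts were less abundant and varied little. ENSBTAT00000060548 ranged from 1480 FPKM in H to 1708 FPKM in 50CSN, and ENSBTAT00000060540 from 917 FPKM in 50CSH to 1144 FPKM in N. ENSBTAT00000060552 ranged from 569 FPKM in H to 789 FPKM in N. The second transcripts of ENSBTAT00000060569 and ENSBTAT00000060567 ranged from 1118 FPKM in H to 1291 FPKM in N and from 528 FPKM in 50CSH to 680.1 FPKM in N. The median log2 range over the 5 libraries was 0.36 for the 17 members. Over all 26826 transcripts kept for comparison (mean 1 FPKM or more) it was 0.74. It was 0.71 over the 519 nuclear transcripts at least as high as the lowest member and never listed at 0. That set was formed after the values were seen and was not matched to the members in level above this limit.

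**Figure D2:**
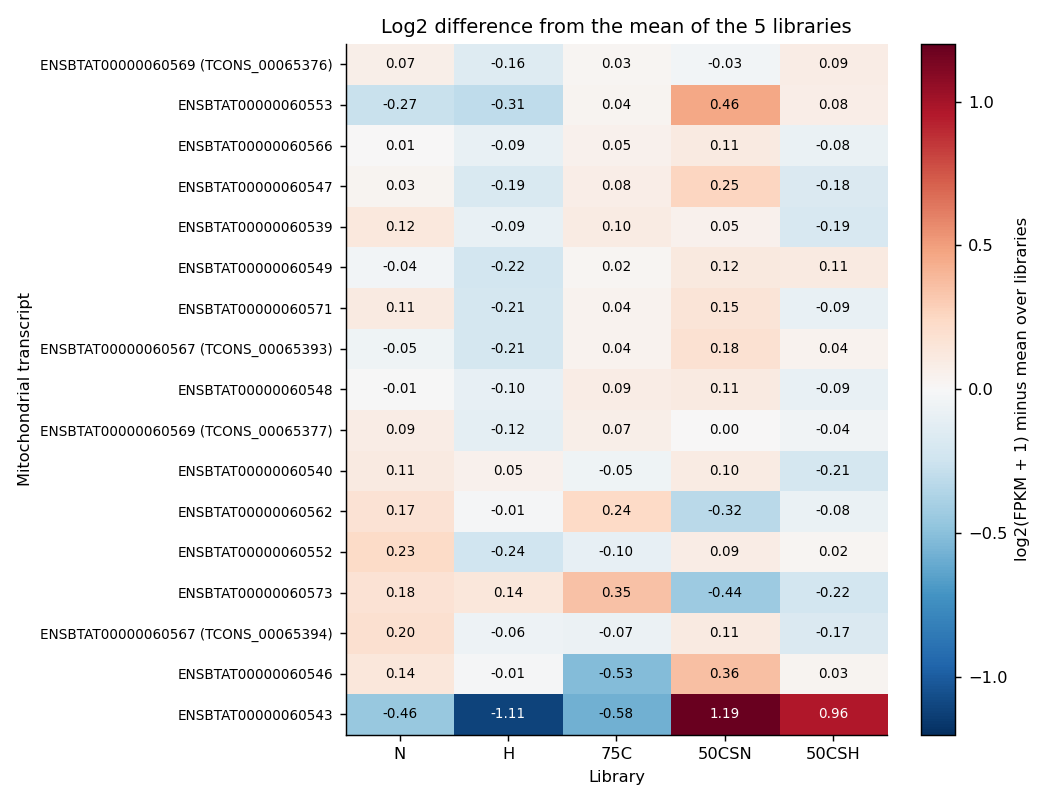
Difference of each library from the 5-library mean, in log2(FPKM + 1), for the 17 mitochondrial transcripts above 0, with the value printed in each cell (red above the mean, blue below). H is blue in most rows, and the strongest colours are in the bottom row, ENSBTAT00000060543, from -1.11 in H to 1.19 in 50CSN.

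The 2 IDs with 2 transcripts above 0 each split their signal in nearly constant proportion. TCONS_00065376 held between 87.9 percent, in 75C, and 89.2 percent, in 50CSH, of the FPKM of ENSBTAT00000060569. TCONS_00065393 held 76.7 percent of ENSBTAT00000060567 in N and 77.8 percent in H, 80.4 percent in 50CSN and 81.9 percent in 50CSH, and 80.9 percent in 75C. For ENSBTAT00000060567 the 3 crosses thus lay above both purebred libraries by a few percentage points. For ENSBTAT00000060569 the groups overlapped, with 88.1 percent in N above 88.0 percent in 50CSN. How often the groups separate in this way among other IDs was not counted. The division of reads between such overlapping transcripts is a model estimate.

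By locus of the assembly, the proportions were alike in all libraries except in XLOC_027736. XLOC_027734, with 9 transcripts above 0, took from 76.9 percent of the mitochondrial sum in N to 78.6 percent in 50CSN. XLOC_027733, with 4 transcripts above 0, took from 12.0 percent in 50CSH to 13.2 percent in N. XLOC_027735, with 2 transcripts above 0, took from 6.13 percent in 75C to 6.36 percent in 50CSH. Summed over members, the part of the mitochondrial signal placed differently in 2 libraries was 2.22 percentage points for 75C against H, 2.42 for H against N and 3.23 for 75C against N. It was 5.28 for 50CSN against 75C and 4.90 for 50CSH against 75C. The values for 50CSN were 7.39 points against N and 6.87 points against H, and those for 50CSH were 5.98 points and 5.77 points. The 50 percent crosses were 5.83 points from each other, so N, H and 75C were more alike in composition than either 50 percent cross was to any library.

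The purebred libraries were compared with each other. The labels do not say that they are the parental populations of the crosses. All 17 members were lower in H than in N, by a median of 0.19 on the log2(FPKM + 1) scale, while the median over all kept transcripts was -0.01. The largest gap was that of ENSBTAT00000060543, at -0.66, and the smallest was -0.04. With median-of-ratios scaling 16 of 17 were lower in H (median -0.15), and with quantile normalization all 17 (median -0.20). None was at least 2-fold apart, against 8.90 percent of all kept transcripts. The members come from 1 chromosome and from the same 2 libraries, so 17 shared signs are not 17 independent observations.

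The cross with more Holstein ancestry, 75C, lay close to N and above H. Against N, 8 members were higher and 9 lower in 75C, with a median of -0.01, and none was at least 2-fold apart against 10.3 percent of all kept transcripts. With quantile normalization 1 of 17 was higher in 75C than in N (median -0.26). Against H, 14 members were higher and 3 lower in 75C, with a median of 0.19, whereas with quantile normalization 5 were higher (median -0.07). None was at least 2-fold apart from H, against 9.18 percent of all kept transcripts. Of the 17 members, 6 lay between N and H in 75C, 8 above both and 3 below both. Of all kept transcripts, 29.1 percent lay between, 35.4 percent above and 35.5 percent below.

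The 50 percent crosses differ in the direction of the cross and hence in the breed of the dam. Between them 14 of 17 members were lower in 50CSH, which has the native dam, with a median of -0.20 against 0.02 over all kept transcripts. With quantile normalization 6 members were higher in 50CSH and the median was -0.04. The 3 members higher in 50CSH were ENSBTAT00000060573, ENSBTAT00000060562 and TCONS_00065376 of ENSBTAT00000060569. No member was at least 2-fold apart, against 9.04 percent of all kept transcripts. In 50CSN, as deposited, 6 members lay between N and H, 9 above both and 2 below both. Of all kept transcripts, 23.1 percent lay between, 33.4 percent above both and 43.6 percent below. In 50CSH 7 members lay between, 5 above both and 5 below both, beside 23.3, 35.2 and 41.5 percent of all kept transcripts. The counts for both crosses depend on the scaling. As deposited, 9 members were higher in 50CSN than in N, and 5 were higher in 50CSH than in N. After median-of-ratios scaling they were 15 and 8, and after quantile normalization 1 and 1.

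ENSBTAT00000060543 was the 1 member at least 2-fold apart between a 50 percent cross and any other library. Against N it was 3.14-fold higher in 50CSN and 2.67-fold higher in 50CSH, where 14.2 percent and 14.2 percent of all kept transcripts were at least 2-fold apart. Against H it was 4.95-fold and 4.22-fold higher, beside 14.5 percent and 14.5 percent of all kept transcripts. Against 75C it was 3.42-fold and 2.91-fold higher, beside 11.6 percent and 11.5 percent of all kept transcripts. In each of these 6 pairs 1 of 17 members is a smaller share than that of all kept transcripts, so the count is no sign of a change in mitochondrial transcripts as a group. Against N the median over the 17 was 0.04 in 50CSN and -0.13 in 50CSH, and against H it was 0.21 and 0.05. With quantile normalization these 4 medians were -0.32, -0.33, -0.17 and -0.13, so their direction depends on the scaling except for 50CSH against N.

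With a limit of 1.5-fold the members past it were still few beside all kept transcripts. They were 1 of 17 for H against N (20.1 percent of all kept transcripts) and 1 for 75C against N (23.9 percent). For 50CSN they were 3 against N (32.1 percent), 2 against H (31.9 percent) and 3 against 75C (26.0 percent).

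**Figure D3:**
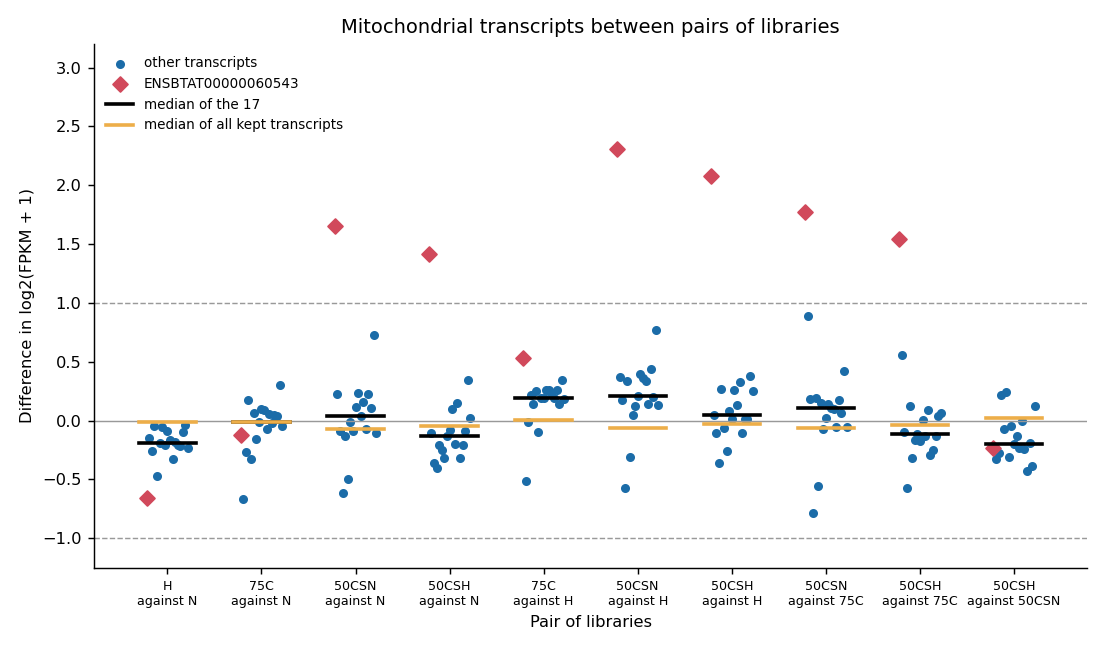
Difference in log2(FPKM + 1) of each of the 17 mitochondrial transcripts in the 10 pairs of libraries, with the median of the 17 (black bar), the median of all kept transcripts (yellow bar) and dashed lines at 2-fold. Nearly all points lie within 2-fold, and ENSBTAT00000060543 (red) lies between 1.42 and 2.31 in the 6 pairs of a 50 percent cross with another library.

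Members were also counted for which the 50 percent crosses did not overlap with N, H and 75C, a contrast formed after the values were seen and not tested. Both crosses were above the other 3 libraries in 4 of 17 members, against 15.5 percent of all kept transcripts. These were ENSBTAT00000060543, ENSBTAT00000060553, ENSBTAT00000060549 and TCONS_00065393 of ENSBTAT00000060567. Both were below in 2 members, ENSBTAT00000060573 and ENSBTAT00000060562, against 22.4 percent of all kept transcripts. The balance turned with the scaling: 6 were above and 1 below after median-of-ratios scaling (21.0 and 17.7 percent of all kept transcripts), and 1 above and 5 below after quantile normalization (20.1 and 17.4 percent). After median-of-ratios scaling and after quantile normalization ENSBTAT00000060543 stayed above and ENSBTAT00000060573 stayed below, and the other 3 members above no longer separated after quantile normalization. ENSBTAT00000060562 overlapped after median-of-ratios scaling.

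To ask whether mitochondrial levels followed the maternal line, libraries with a Holstein dam (H and 50CSN) were set against those with a native dam (N and 50CSH). This reads H as Holstein and N as native, which the labels do not spell out. On that reading the sides also differ in nuclear ancestry, so dam breed and nuclear breed share cannot be told apart in this contrast. Only 50CSN and 50CSH have the same breed shares with different dam breeds. Summed mitochondrial FPKM was 46534 ± 6915 (SD, n = 2) with a Holstein dam and 46528 ± 874 (SD, n = 2) with a native dam. The spread within the Holstein-dam libraries, whose members are the lowest and the highest library of the series, was far larger than the difference of 6.21 FPKM (exact permutation, two-sided p = 1.00). The mitochondrial share was 5.85 ± 0.25 percent (SD, n = 2) and 6.12 ± 0.42 percent (SD, n = 2), an exact permutation p of 0.667, two-sided. With 2 libraries against 2, no exact p below 0.333 can be reached.

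By limma on the dam contrast, with Benjamini-Hochberg adjustment over the 26826 kept transcripts, 0 percent of transcripts and no member passed an adjusted p of 0.05. At an unadjusted p of 0.05 limma gave 2.39 percent of all kept transcripts and no member, and the smallest unadjusted limma p of a member was 0.488. Of the 17 members 8 were higher and 9 lower with a Holstein dam, with a median log2 difference of -0.01, against -0.02 over all kept transcripts. After quantile normalization the median was -0.11 and 3 were higher, and the direction turned with the library left out. Without H the median was 0.14 with 12 higher and 5 lower, and without 50CSN it was -0.12 with 2 higher and 15 lower. Holstein-dam libraries were both below both native-dam libraries in 1 of 17 members, against 12.4 percent of all kept transcripts, and above in none, against 10.3 percent. That member was TCONS_00065376 of ENSBTAT00000060569, with a log2 difference of -0.18 ± 0.53 (SE, limma adjusted p = 1.00). After median-of-ratios scaling or quantile normalization a different single member separated.

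The crossbred libraries (75C, 50CSN and 50CSH) were set against the purebred ones (N and H), with different populations in place of replicates. Summed mitochondrial FPKM was 48480 ± 2776 (SD, n = 3) in crossbreds and 44395 ± 3890 (SD, n = 2) in purebreds, an exact permutation p of 0.30, two-sided. As a share it was 5.85 ± 0.17 percent (SD, n = 3) and 6.04 ± 0.52 percent (SD, n = 2), an exact permutation p of 0.700, two-sided. The smallest exact p of this design is 0.10, and the 4 permutation tests gave Benjamini-Hochberg adjusted values of 0.933 to 1.00. The difference of 4084 FPKM was larger than either SD and the difference in share was smaller than the SD of the purebreds, neither with a low exact p, and they had opposite signs.

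By limma on this contrast 0.0298 percent of all kept transcripts and no member passed an adjusted p of 0.05. At an unadjusted p of 0.05 limma gave 13.9 percent of all kept transcripts and none of the 17 members. The members' median log2 difference was 0.07, with 11 higher and 6 lower in crossbreds, against -0.04 over all kept transcripts. After quantile normalization the direction turned, with a median of -0.21 and 16 of 17 lower. Without H the median was -0.08.

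In crossbreds 3 of 17 members were above both purebred libraries in all crosses, against 15.7 percent of all kept transcripts, and none was below, against 19.9 percent. These counts depend on the scaling. After median-of-ratios scaling 6 members were above (19.7 percent of all kept transcripts) and none below (16.2 percent), whereas after quantile normalization none was above (18.9 percent) and 6 were below (16.6 percent). ENSBTAT00000060553 had the largest difference of the 3, at 0.48 ± 0.20 (SE, limma adjusted p = 0.372), and -0.08 after quantile normalization. ENSBTAT00000060549 differed by 0.21 ± 0.14 (SE, limma adjusted p = 0.524). TCONS_00065393 of ENSBTAT00000060567 differed by 0.22 ± 0.14 (SE, limma adjusted p = 0.488). Over the settings tried, the adjusted limma p of ENSBTAT00000060553 ranged from 0.258 to 0.789. ENSBTAT00000060543 had a larger difference, 1.31 with a standard error of 0.58, but 75C overlapped with the purebreds (limma adjusted p = 0.385).

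The authors' deposited table of pairwise comparisons calls mitochondrial transcripts in 1 of the 10 pairs. Between 75C and N the authors' deposited table marks 11 of the 17 tested members as significant, 5 higher and 6 lower in 75C, beside 0.183 percent of all transcripts it tested in that pair. In the other 9 pairs no member is marked in the authors' deposited table, beside 0.109 percent of all tests. The 11 calls do not go with large differences. Their log2 fold changes in the authors' deposited table run in size from 0.04 to 0.67, a 1.03-fold to 1.59-fold change, with a median of 0.16. ENSBTAT00000060566, at 5722 FPKM in N and 5891 FPKM in 75C, is the smallest called change, and ENSBTAT00000060546 the largest.

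No nuclear transcript was called at such a small difference. Of all 430 calls in the authors' deposited table, those with both values above 0 and less than 2-fold apart were 11, and all 11 were mitochondrial. Every call in the authors' deposited table has the smallest p-value in it, 5e-05. ENSBTAT00000060543, which differed most, was called in no pair: its p-value in the authors' deposited table was 0.335 for 50CSN against H and 0.229 for 50CSN against 75C.

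The members' p-values in the authors' deposited table went with the pair of libraries more than with the size of the difference. For 75C against N their median in the authors' deposited table was 5e-05. In the 6 pairs that join N or 75C with H, 50CSN or 50CSH, the medians in the authors' deposited table were between 0.458 and 0.471. In the 3 pairs among H, 50CSN and 50CSH they were between 0.890 and 0.920 in the authors' deposited table. For transcripts outside chromosome M the median p-value per pair in the authors' deposited table lay between 0.439 and 0.575, without these steps. N and 75C were the closest pair in summed mitochondrial FPKM but not in composition. What sets their p-values apart was not tested.

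**Figure D4:**
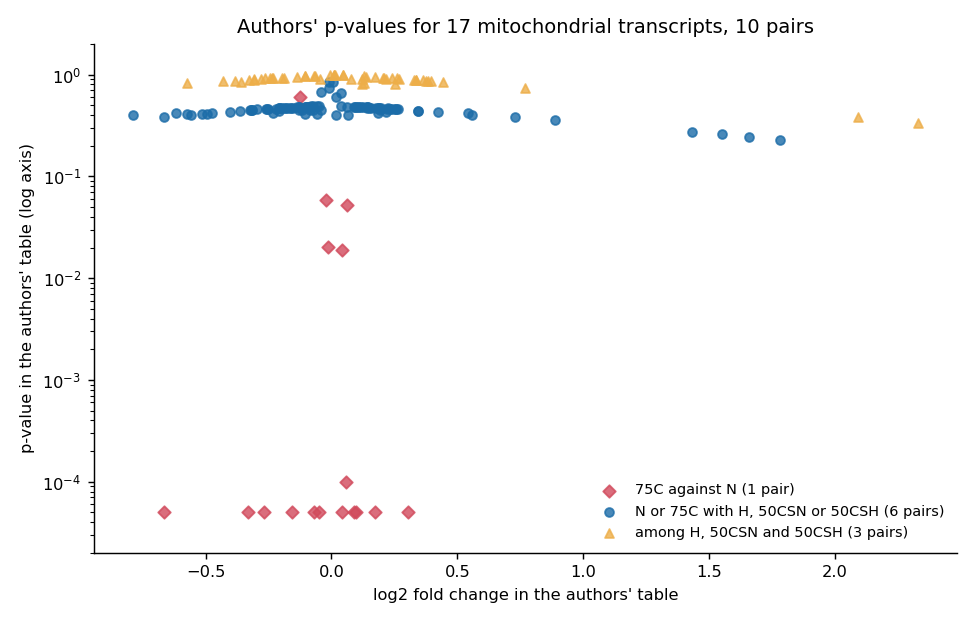
Each point is 1 of 17 mitochondrial transcripts in 1 of 10 pairs, with the log2 fold change of the authors' deposited table on the horizontal axis and its p-value on a log vertical axis. The pair 75C against N (red) reaches 5e-05 at fold changes near 0. Points of the other pairs lie mostly near 0.46 (6 pairs) and 0.9 (3 pairs). Their p-values in the authors' deposited table run from 0.229 to 0.853 and from 0.335 to 0.995. Both lows are at the largest fold changes.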

How the data were processed

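Transcript levels were measured by RNA sequencing in 5 libraries of leukocytes, 1 per population. The submitters' processing notes name TopHat2 2.0.9 along with Cufflinks 2.2.1.0, without build, annotation or settings. Per the file headers, the authors deposited FPKM values per transcript for 10 pairs of libraries. The authors' tables also give a log2 fold change for each pair, and a p-value and q-value per transcript. A library had the same FPKM in every pair it enters. Read division between overlapping transcripts is a model estimate that can fail as 0.

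Levels were compared as log2(FPKM + 1) over the 26826 transcripts whose mean reached 1 FPKM. Pairs were described by fold, without a test. Group contrasts were fitted over all kept transcripts by limma (3.58.1, R 4.3.3), letting the prior variance follow the mean level, with p-values adjusted by Benjamini and Hochberg. The fit was also run on simulated data with independent normal noise. That run does not show how the fit behaves when populations stand in for replicates. Single sums were compared by exact permutation. Python 3.11.15 with pandas 2.3.3 and numpy 2.4.6 read the tables.

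The members and lists were chosen with earlier results of these data known. Named were the 8 highest members, those at least 2-fold apart in a pair, those past an adjusted threshold, and the 5 with the widest range. Groups that do not overlap and the 50 percent crosses against the rest were examined after the values were seen. Lists of respiratory chain genes and cell markers were not used, since IDs could not be matched to symbols. Alternatives were other pseudocounts, filters, scalings, limma settings, denominators and leaving out a library.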

Additional observations from a re-analysis of the deposited data

How the results depend on the processing

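No member passed an adjusted p of 0.05 in either limma contrast under any of the settings tried. The number of all kept transcripts past the threshold was less stable. For crossbreds against purebreds it was 8 as reported. It was 3 with a pseudocount of 0.1, 3 without a filter, 3 with a mean of at least 5 FPKM, and 4 with values summed per locus. Leaving out each library in turn gave 0 to 24: 0 without N, 50CSN or 50CSH, 11 without H and 24 without 75C. For the dam contrast it was 0 as reported. It was 1 with median-of-ratios scaling, with a mean of at least 5 FPKM, with values per locus, with robust fitting and with an adjusted p of 0.1. Where 1 library was left in a group, it was assumed to vary like the others.

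Quantile normalization turned the crossbred difference of 10 of the 17 members around. Among those described singly, ENSBTAT00000060549 was at -0.15, ENSBTAT00000060553 at -0.0845 and TCONS_00065393 of ENSBTAT00000060567 at -0.18. The cause was not tested. Median-of-ratios scaling moved the median of all kept transcripts for 50CSN against N from -0.07 to 0.04. With a 1.5-fold limit, under which 20.1 to 32.1 percent of all kept transcripts passed, the members called were 1 for H against N and 1 for 75C against N. They were 3 for 50CSN against N, 2 for 50CSN against H and 3 for 50CSN against 75C.

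The mitochondrial share depends on the denominator. Without nuclear transcripts lacking an Ensembl ID it was 8.12, 7.12, 7.51, 7.45 and 7.06 percent, with libraries ordered N, H, 75C, 50CSN, 50CSH. Without nuclear spans under 300 nt it was 7.72, 6.72, 7.13, 7.04 and 6.86 percent in the same order. Without the highest nuclear transcript it was 6.61, 5.78, 5.86, 6.13 and 5.96 percent. Relative to nuclear transcripts alone it was 6.85, 6.02, 6.05, 6.42 and 6.18 percent. Without transcripts listed at 0 anywhere it was 6.66, 5.88, 5.92, 6.27 and 5.90 percent. N was highest under all 5 denominators, and the order of the other libraries changed under 3 of them: without transcripts lacking an Ensembl ID, without short spans and without transcripts listed at 0. Without the highest mitochondrial transcript 4 members in place of 5 had shares at least 1.5-fold apart. Leaving out short mitochondrial transcripts was not run, since no member has a length of its own in the tables. No paired analysis was possible because each population has 1 library and the labels give no replicate numbers. Without read counts, depth limits the precision of low members such as ENSBTAT00000060543 to an unknown extent.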

Other observations

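In the authors' deposited table that pools the purebred and the crossbred populations, all 41 mitochondrial transcripts carry the status HIDATA, which Cuffdiff gives to a locus with too many fragments to process. Their log2 fold change is 0 in the authors' deposited table and none is called, so the pooled comparison holds no mitochondrial result. Only 3 other transcripts of that table have this status. In the pairwise table of the same study, 17 of the 41 were tested in each pair.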
